A study of Mus musculus with 6 samples.

Results

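ChREBP, the carbohydrate response element binding protein encoded by Mlxipl, and 8 genes tied to it were followed in mouse liver RNA. They are Mlx, Pklr, Txnip, Arrdc4, Khk, Tkfc, Slc2a2 and Gpd1, chosen by name as the partner of ChREBP and as carbohydrate-responsive genes. All 9 were found among the 15092 genes of the deposited table, and all 9 were among the 13816 genes tested. The material was liver of C57BL/6J mice in 6 libraries, 3 of wild type (WT) and 3 titled as lacking Cry1, called here the libraries labelled CRY1 KO. The Cry1 protein is a cryptochrome that represses transcription within the circadian clock. The labels call the cells hepatocytes and state no sorting. The titles of both groups carry the prefix NC, which is not explained and was not interpreted. The sources used here give neither age, sex, time of day, feeding state nor the knockout allele, nor whether each library came from its own animal. All p-values thus rest on the spread between these libraries, part of which may be technical.

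ChREBP is a transcription factor of the basic helix-loop-helix leucine zipper family that becomes active when sugar phosphates build up in the cell. It binds DNA as a pair with MLX at carbohydrate response elements, which consist of a pair of E-box-like sites set a short distance apart. In liver it is known for switching on glycolysis, fructose breakdown and fat synthesis after a meal rich in sugar. E-boxes are also the sites through which the clock activators CLOCK and BMAL1 work.

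The sequences before the starts of these genes are shown first, because the spacing and letters of these sites are what ChREBP and MLX are known to read. RefSeq promoter sequences (GRCm38.p6) were matched for 8 of the 9 genes. They were searched in the 250 bases before each annotated start. The motifs sought were the carbohydrate response element consensus with at most 1 mismatch at its specified bases, and the E-box CACGTG. Both read the same on either strand, so a search of 1 strand covers both. Pklr has 2 annotated starts 481 bases apart, and the stretch before the downstream one, the start used in liver, held an element with 0 mismatches. The bases shortly after this downstream start matched no Pklr transcript of the GENCODE annotation, so its place rests on RefSeq. Txnip held an element with 1 mismatch, and Arrdc4 held a single E-box. In the next lines, read 5′ to 3′ along the gene, capitals mark the specified bases of the element (Pklr, Txnip) or the E-box (Arrdc4).
Pklr, downstream start, chr3:89136373-89136622, plus strand: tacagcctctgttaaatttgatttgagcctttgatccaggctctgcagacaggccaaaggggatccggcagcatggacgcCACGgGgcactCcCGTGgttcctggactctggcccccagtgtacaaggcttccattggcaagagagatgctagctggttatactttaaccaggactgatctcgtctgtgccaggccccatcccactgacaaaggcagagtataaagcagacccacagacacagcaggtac
Txnip, chr3:96557707-96557956, plus strand: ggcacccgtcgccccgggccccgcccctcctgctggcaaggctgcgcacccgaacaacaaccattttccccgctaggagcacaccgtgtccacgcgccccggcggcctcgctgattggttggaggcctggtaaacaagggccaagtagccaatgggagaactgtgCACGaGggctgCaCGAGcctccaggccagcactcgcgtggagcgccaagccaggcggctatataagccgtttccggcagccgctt
Arrdc4, chr7:68749239-68749488, minus strand: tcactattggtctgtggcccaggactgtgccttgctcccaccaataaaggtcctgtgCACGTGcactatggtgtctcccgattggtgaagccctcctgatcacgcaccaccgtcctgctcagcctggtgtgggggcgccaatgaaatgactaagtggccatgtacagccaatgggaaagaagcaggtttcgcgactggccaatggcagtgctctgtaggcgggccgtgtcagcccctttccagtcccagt

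The Pklr element lay 170 to 154 bases before the start (chr3:89136453-89136469), and the Txnip element 85 to 69 bases before it (chr3:96557872-96557888). The Arrdc4 E-box lay 193 to 188 bases before the start. Mlxipl, Mlx and Khk held an E-box without a carbohydrate response element, and the 30 bases around each are shown with the E-box in capitals, to set them beside the paired sites above.
Mlxipl, upstream start, chr5:135089780-135089809, plus strand: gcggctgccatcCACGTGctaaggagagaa
Mlx, chr11:101087238-101087267, plus strand: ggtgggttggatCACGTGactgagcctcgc
Khk, chr5:30921476-30921505, plus strand: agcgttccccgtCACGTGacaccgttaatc

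Mlxipl has 2 annotated starts 17001 bases apart, and the E-box belongs to the upstream one, from which the short constitutively active form ChREBP-beta is made. The deposited value covers the whole gene, so transcripts from the starts of Mlxipl, or of Pklr, cannot be told apart. Neither motif was found in this window of Tkfc or Slc2a2. Over all 32851 promoter sequences of this length, 0.0974% held the carbohydrate response element with 0 mismatches, 1.91% with at most 1 and 21.5% with at most 2, and 6.02% held the E-box. A match is a description of the letters and not evidence of binding.

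**Figure D1:**
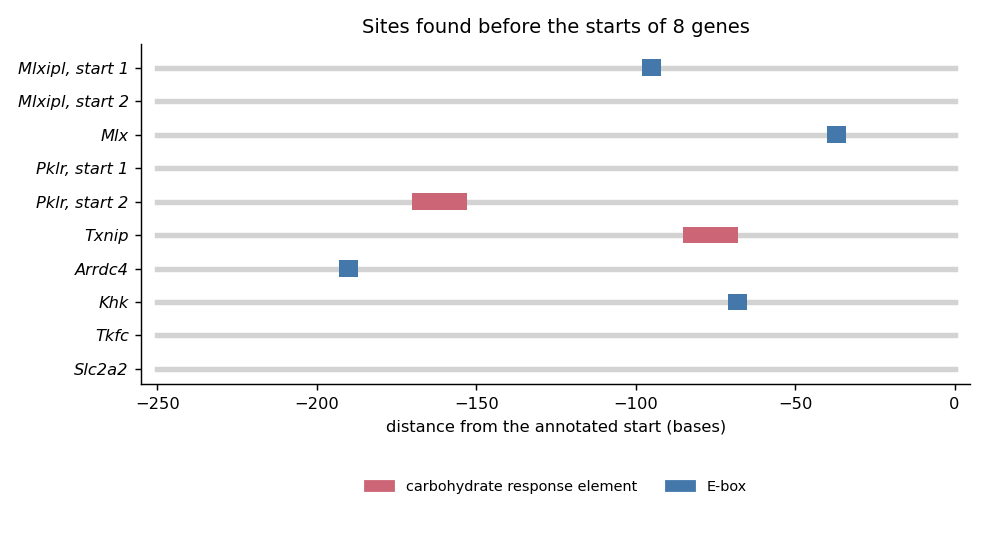
Position of the motif matches in the 250 bases before each annotated start (0 on the horizontal axis, distance in bases) for the 8 genes with a RefSeq promoter; red bars are carbohydrate response elements with at most 1 mismatch and blue bars E-boxes. Pklr and Txnip carry the paired element, and Mlxipl, Mlx, Arrdc4 and Khk carry an E-box.

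Library totals ran from 79708703 to 91316332 estimated counts, and the smallest count of any of the 9 genes in a library was 366 (Arrdc4 in WT 2). Levels are in CPM, the count relative to library size on a scale adjusted for composition. A log2 difference is positive where the libraries labelled CRY1 KO were higher. On the second principal component WT 1 (48.8) stood apart on one side and WT 3 (-32.4) on the other. The remaining libraries lay between -9.73 and 4.81. WT 1 also had the largest share of haemoglobin counts, 0.267% against 0.0435% to 0.0917% in the others. Cry1 itself was not lower in the libraries labelled CRY1 KO. It stood at 4.80, 6.89 and 7.24 CPM in WT 1, 2 and 3 and at 6.95, 6.41 and 5.22 CPM in CRY1 KO 1, 2 and 3 (log2 -0.03, SE 0.19, adjusted p = 0.954 by edgeR, exact two-sided permutation p = 0.9 for the mean CPM, where 0.1 is the smallest possible). The whole-gene value cannot show a loss of part of the gene, so it does not check the labels. Hepatocyte markers were abundant in every library, with Alb between 45890 and 62770 CPM.

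Of the 9 genes, Pklr and Arrdc4 rose in the libraries labelled CRY1 KO, by 1.67-fold and 1.79-fold. Txnip showed the largest difference of the 9, 4.76-fold, but varied too much between libraries to pass the test. Slc2a2 was higher, and Mlx and Gpd1 lower, without overlap between the groups and without passing the test. Mlxipl, Khk and Tkfc overlapped between the groups. The edgeR test therefore called 2 of the 9 genes higher, where 1.06% of all tested genes were called higher. It called 0 lower, where 0.644% of all were, and 6 of the 9 had an unadjusted p under 0.05, as did 20.7% of all. Groups did not overlap for 4 genes that were higher and 2 that were lower, against 14.6% and 12.7% of all tested genes. DESeq2, which called 9.63% of the genes to which it gave an adjusted p, called 6 of the 9, namely those 6.

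**Figure D2:**
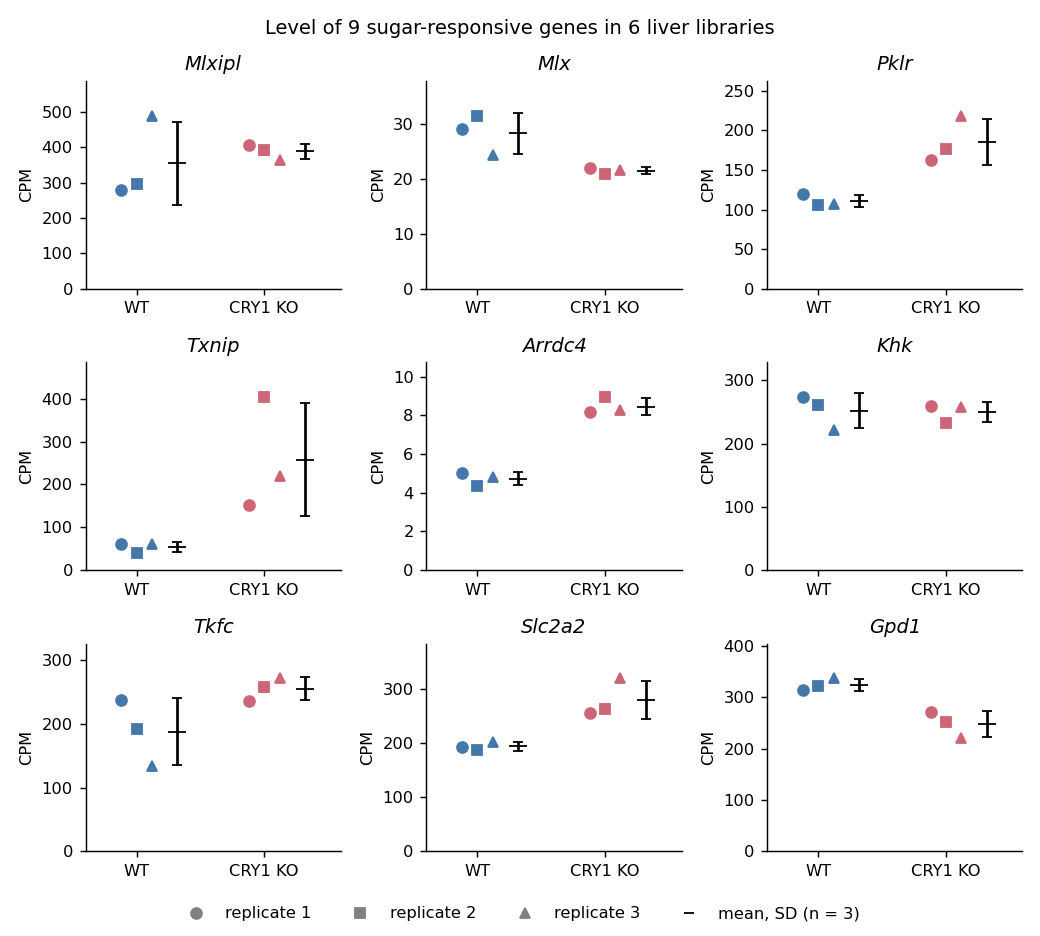
Level in CPM (vertical axes, each starting at 0) of the 9 genes in the 3 WT (blue) and 3 CRY1 KO (red) libraries; the marker shape is the replicate number, and black bars are the mean and SD of each group (n = 3). Pklr, Txnip, Arrdc4 and Slc2a2 are higher in every red library than in every blue one, and Mlx and Gpd1 lower.

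Mlxipl stood at 278.1, 295.6 and 489.5 CPM in WT 1, 2 and 3. In CRY1 KO 1, 2 and 3 it stood at 407.3, 393.2 and 364.9 CPM. The libraries labelled CRY1 KO lay close together, above WT 1 and WT 2 and below WT 3, so the groups overlapped. WT averaged 354 ± 117 CPM, and CRY1 KO averaged 388 ± 21.6 CPM (SD over 3 libraries in both). This is 0.13 on the log2 scale (SE 0.21), with an adjusted p of 0.757 by edgeR and a 95% interval by limma of -0.30 to 0.66. The value turned on single WT libraries. Without WT 3 it was 0.44 and passed (edgeR adjusted p = 0.0402), and without WT 1 it was -0.02 (edgeR adjusted p = 0.975).

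Mlx encodes the obligate dimer partner of ChREBP. It stood at 29.1, 31.5 and 24.3 CPM in WT 1, 2 and 3 and at 22.0, 20.8 and 21.6 CPM in CRY1 KO 1, 2 and 3. Every library labelled CRY1 KO was below every WT library, with WT 3 nearest to them. The log2 difference of -0.40 (SE 0.11) did not pass the edgeR test (adjusted p = 0.1; limma 95% interval -0.64 to -0.14). It passed without WT 3 (log2 -0.50, edgeR adjusted p = 0.0265) and by DESeq2 (adjusted p = 0.0398). The ratio of Mlxipl to Mlx CPM, which is not per length and is read only between libraries, also overlapped. It was 9.56 for WT 1, 9.39 for WT 2 and 20.2 for WT 3, while the libraries labelled CRY1 KO gave 18.5, 18.9 and 16.9.

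Pklr encodes the liver pyruvate kinase, which catalyses the last step of glycolysis and is the classical target through which carbohydrate response elements were studied. It stood at 119.7, 106.2 and 107.0 CPM in WT 1, 2 and 3. In CRY1 KO 1, 2 and 3 it stood at 162.5, 176.1 and 218.7 CPM. All libraries labelled CRY1 KO were above all WT libraries, and CRY1 KO 3 was the highest. Pklr rose from 111 ± 7.56 to 186 ± 29.3 CPM (SD over 3 libraries in both), which is 0.74 on the log2 scale (SE 0.12; limma 95% interval 0.46 to 1.01) with an adjusted p of 0.0343 by edgeR. With 1 library left out the log2 difference lay between 0.62 (without CRY1 KO 3) and 0.83 (without CRY1 KO 1). The call was kept without WT 1 or WT 3 and lost without WT 2 (edgeR adjusted p = 0.152) or without CRY1 KO 1, 2 or 3 (0.0644, 0.125 and 0.106). It was also lost with libraries scaled by their totals alone (0.0596).

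Txnip and Arrdc4 encode alpha arrestins, adaptor proteins that lower glucose uptake by removing transporters from the cell surface. TXNIP also binds and inhibits thioredoxin. Both genes are widely used as readouts of ChREBP and of its relative MondoA.

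Txnip stood at 61.0, 40.4 and 61.4 CPM in WT 1, 2 and 3. In CRY1 KO 1, 2 and 3 it stood at 151.0, 404.3 and 219.0 CPM. The lowest library labelled CRY1 KO was above the highest WT library, but CRY1 KO 2 was far above its own group. The means were 54.3 ± 12.045 and 258 ± 131 CPM (SD over 3 libraries in both), apart by 2.25 on the log2 scale (SE 0.42; limma 95% interval 1.14 to 3.17). It missed the edgeR threshold (adjusted p = 0.0678), also with any 1 library left out (0.0644 to 0.199), and passed by DESeq2 (adjusted p = 8.8e-05). The log2 difference was 1.77 without CRY1 KO 2 and 2.53 without CRY1 KO 1. By the size of the positive difference Txnip was at place 32 of the 13816 tested genes, and by p at place 436.

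Arrdc4 was far more even. It stood at 5.04, 4.35 and 4.81 CPM in WT 1, 2 and 3 and at 8.15, 8.95 and 8.27 CPM in CRY1 KO 1, 2 and 3. The groups were well apart, and the spread within each was small. Arrdc4 rose from 4.73 ± 0.35 to 8.46 ± 0.43 CPM (SD over 3 libraries in both), which is 0.84 on the log2 scale (SE 0.13; limma 95% interval 0.54 to 1.13) with an adjusted p of 0.0273 by edgeR. The log2 difference stayed between 0.78 and 0.88 with any 1 library left out. The call was lost without WT 2 (edgeR adjusted p = 0.128) or without CRY1 KO 1, 2 or 3 (0.0841, 0.138 and 0.115), and with libraries scaled by their totals alone (0.0523), although the difference hardly moved. The fits without a library also had fewer samples.

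The arrestins did not keep step with each other. The ratio of Txnip to Arrdc4 CPM, again read only between libraries, was 9.27 to 12.8 over the WT libraries. The libraries labelled CRY1 KO gave 18.5, 45.2 and 26.5. Within WT, WT 2 was the lowest library for Txnip, Arrdc4, Pklr and Slc2a2.

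Slc2a2 encodes GLUT2, the transporter through which hepatocytes take up glucose and fructose. It stood at 193.1, 186.0 and 201.6 CPM in WT 1, 2 and 3 and at 255.4, 262.4 and 318.8 CPM in CRY1 KO 1, 2 and 3. Every library labelled CRY1 KO was higher, and CRY1 KO 3 again the highest. The log2 difference of 0.53 (SE 0.11; limma 95% interval 0.28 to 0.76) lay just short of the edgeR threshold (adjusted p = 0.0515). It passed by limma (adjusted p = 0.0467), by DESeq2 (adjusted p = 0.000748) and by edgeR without WT 3 (adjusted p = 0.0392).

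Khk and Tkfc encode ketohexokinase, which starts fructose breakdown, and triokinase, which phosphorylates the glyceraldehyde that follows from it. Khk stood at 273.8, 261.6 and 220.9 CPM in WT 1, 2 and 3 and at 260.1, 232.2 and 257.9 CPM in CRY1 KO 1, 2 and 3. The groups overlapped fully (log2 -0.01, SE 0.11, edgeR adjusted p = 0.965). The limma 95% interval of -0.25 to 0.23 bounds the size of any difference and does not show that there was none. Tkfc stood at 237.9, 192.3 and 134.1 CPM in WT 1, 2 and 3 and at 236.8, 257.9 and 271.7 CPM in CRY1 KO 1, 2 and 3. WT 1 reached the level of CRY1 KO 1, while WT 3 was well below the other libraries. The log2 difference of 0.44 (SE 0.19, edgeR adjusted p = 0.243) was 0.25 without WT 3 and 0.65 without WT 1.

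Gpd1 encodes the cytosolic glycerol-3-phosphate dehydrogenase, which makes the glycerol backbone of triglycerides and moves reducing equivalents towards mitochondria. It stood at 314.8, 321.6 and 337.0 CPM in WT 1, 2 and 3 and at 270.6, 251.8 and 220.1 CPM in CRY1 KO 1, 2 and 3. All libraries labelled CRY1 KO were lower, and CRY1 KO 3, the highest for Pklr and Slc2a2, was the lowest for Gpd1. The log2 difference was -0.39 (SE 0.10, edgeR adjusted p = 0.0838; limma 95% interval -0.62 to -0.17), and DESeq2 called it lower (adjusted p = 0.0108).

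**Figure D3:**
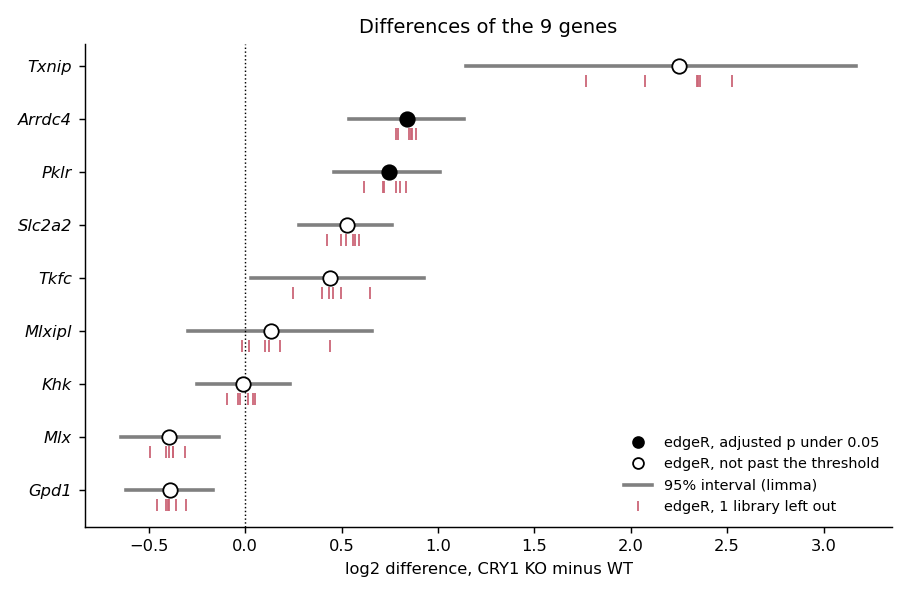
Log2 difference (horizontal axis, libraries labelled CRY1 KO minus WT) of the 9 genes by edgeR (circles, filled where the adjusted p was under 0.05), with the limma 95% interval (grey) and the edgeR values with 1 library left out (red ticks). Pklr and Arrdc4 are the filled circles, Txnip has the largest difference and the widest interval, and the ticks of Mlxipl and Khk fall on both sides of 0.

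Marker genes of other liver cells were read beside these values, since in bulk tissue fewer cells of a type and less RNA per cell cannot be told apart. Of 10 Kupffer cell (liver macrophage) markers, 8 were lower without overlap, as were 12.7% of all tested genes. The edgeR test called 0 of these markers. By edgeR 8 had an unadjusted p under 0.05, as did 20.7% of all tested genes. DESeq2 called 6, and 9.63% of the genes to which it gave an adjusted p. The summed level of the 10 Kupffer cell markers was 638.2, 400.2 and 248.8 CPM in WT 1, 2 and 3. In CRY1 KO it was 228.7 to 230.0 CPM, and none of the markers was at 0 throughout. Of 9 lymphocyte markers 8 differences were negative and Jchain, which encodes the joining chain of antibodies, fell (log2 -2.45, SE 0.33, adjusted p = 0.0194 by edgeR). Its levels were 5.84, 4.12 and 9.23 CPM in WT 1, 2 and 3, and 0.947 to 1.51 CPM in those labelled CRY1 KO. Summed lymphocyte markers were at 8.41 to 13.4 CPM in WT and 3.53 to 4.18 CPM in CRY1 KO, and none was at 0 throughout. Jchain was the largest part of this sum in every library, and no other lymphocyte marker was above 1.363 CPM in any. Of the 9 markers 3, Jchain among them, were lower without overlap, as were 12.7% of all tested genes. The other 8 beside Jchain did not pass the edgeR test. The part of these cells in the differences of the 9 genes was not tested. Summed hepatocyte markers ranged from 77290 to 83950 CPM in WT and from 83060 to 91820 CPM in CRY1 KO, and Alb was the largest part of each sum. Of the 9 hepatocyte markers 4 differences were positive and 5 negative, with a median of 0. Of 7 adipocyte and muscle markers 3 were in the table, and Adipoq, which defines fat cells, was at or below 0.0626 CPM in every library.

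The other genes of the sugar response were read in 11 lists, with the 9 genes taken out. Of their 122 tested genes 10 rose and 0 fell, or 8.2%. Without the list of clock genes, 6 of 112 rose, or 5.36%. Of all tested genes 1.06% were called higher and 0.644% lower. The count of 10 depended on the library left out, and leaving out WT 1, 2 or 3 gave 27, 2 and 19, and leaving out CRY1 KO 1, 2 or 3 gave 4, 3 and 3. The median log2 difference of all tested genes was -0.02, and 6537 of the 13816 differences were positive.

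Among 8 tested relatives and partners in the network of MLX and MAX, 0 passed the edgeR test, while all 8 differences were positive, with a median of 0.36. Max, the shared partner of the MYC family, had a log2 difference of 0.60 (edgeR adjusted p = 0.0589). Those of the repressors Mxi1 and Mxd4 were 0.44 and 0.34, and that of Mlxip, which encodes MondoA, was 0.41. The difference of Mlx was negative where these 8 were positive, but Mlx did not pass the edgeR test either. The signs were not tested. Of 17 cofactors and modifiers of ChREBP, 2 rose and 15 did not pass (median 0.08). Oga, which encodes the enzyme that removes O-GlcNAc sugars from proteins, rose from between 42.4 and 49.6 CPM in WT to between 62.5 and 70.2 CPM (log2 0.57, SE 0.09, edgeR adjusted p = 0.0343). Ogt, which adds those sugars, overlapped between the groups (log2 0.08). Hnf4a, the hepatocyte nuclear receptor that acts beside ChREBP on the Pklr promoter, rose with a log2 difference of 0.73 (edgeR adjusted p = 0.0389).

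Of 14 genes of fat synthesis known to respond to carbohydrate, Scd1 (log2 1.25) and Me1 (log2 0.67) rose and 12 did not pass (median 0.32). Several of the 12 were high in WT 1. Thrsp, which encodes a regulator of fat synthesis, had 286.9 CPM in WT 1, while WT 2 had 90.5, WT 3 had 39.5 and the libraries labelled CRY1 KO had 170.5 to 283.9. Acly, which encodes the enzyme that supplies acetyl-CoA, had 332.3 CPM in WT 1, then 153.0 and 131.0 in the other WT libraries and 225.1 to 273.6 in those labelled CRY1 KO. For Fasn, the fatty acid synthase, WT 1 had 471.1 CPM, the other WT libraries 256.5 and 185.0, and those labelled CRY1 KO 283.5 to 373.3. These 3 genes were named after their values were seen. Of the 9 genes Tkfc, Pklr, Arrdc4 and Khk also had their highest WT level in WT 1, and Tkfc and Khk were there above at least 1 library labelled CRY1 KO.

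Of 16 other carbohydrate-responsive genes Klf10, a transcription factor gene under clock and glucose control, rose and 15 did not pass (median 0.19). It stood at 6.63, 3.87 and 8.71 CPM in WT 1, 2 and 3 and at 24.6, 50.6 and 44.1 CPM in CRY1 KO 1, 2 and 3 (log2 2.63, SE 0.40, edgeR adjusted p = 0.047). Fructose and polyol genes numbered 11 in all, with 0 past the edgeR test and a median of 0.07. Slc2a5, which encodes the fructose transporter GLUT5, had a difference of 0.45. Of 10 other alpha arrestin and thioredoxin genes 0 passed (median 0.15). Arrdc2 (0.94) and Itch (0.48), a ubiquitin ligase that works on TXNIP, lay closest to the threshold (edgeR adjusted p = 0.0515 each), and Txn1, which encodes the thioredoxin that TXNIP inhibits, had a difference of -0.30.

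Of 10 other tested genes of glucose transport and phosphorylation 0 passed the edgeR test (4 at an unadjusted p under 0.05), and 9 differences were negative, with a median of -0.53. They ranged down to -1.035 for Slc2a4 from -0.008 for Hk1, and the sign of the list was not tested. Slc2a4 (SE 1.05) and Slc2a3 were barely detected, at or below 0.3962 and 0.5233 CPM in every library. Slc2a1, the gene of the glucose transporter GLUT1, had 7.40, 10.28 and 12.64 CPM in WT 1, 2 and 3, while CRY1 KO 1, 2 and 3 had 5.70, 7.08 and 6.81 (log2 -0.63, adjusted p = 0.132 by edgeR). Its groups did not overlap. Slc37a4, which carries glucose 6-phosphate to the site of its hydrolysis, had the positive difference (log2 0.82, edgeR adjusted p = 0.21). Beside Gpd1, 12 genes of the glycerol phosphate route had a median of -0.01 and 0 passed. Agpat2, which acts on the backbone that Gpd1 supplies, had a difference of -0.53, while Gk, the glycerol kinase that offers another route to glycerol 3-phosphate, had 0.45 and Gpd1l 0.39.

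Genes that follow insulin and fasting were read because feeding state is not given. Of 7 insulin and SREBP-1c responsive genes 0 passed the edgeR test, and their median was 0.01. Srebf1, the gene of SREBP-1, had 97.0 CPM in WT 1, 247.6 in WT 2 and 290.1 in WT 3, while CRY1 KO 1, 2 and 3 had 92.5, 98.3 and 118.0 (log2 -1.04, edgeR adjusted p = 0.24). It passed without WT 1 (log2 -1.39, edgeR adjusted p = 0.00166). Of 13 fasting responsive genes Cpt1a (log2 0.71) rose, 12 did not pass, and 12 differences were positive, with a median of 0.67. By library the median log2 deviation of fasting genes from their own means was 0.05 for WT 1, -0.79 for WT 2 and -0.49 for WT 3, and the libraries labelled CRY1 KO lay between 0.26 and 0.60. The part of feeding state in the values of the 9 genes was not tested.

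**Figure D4:**
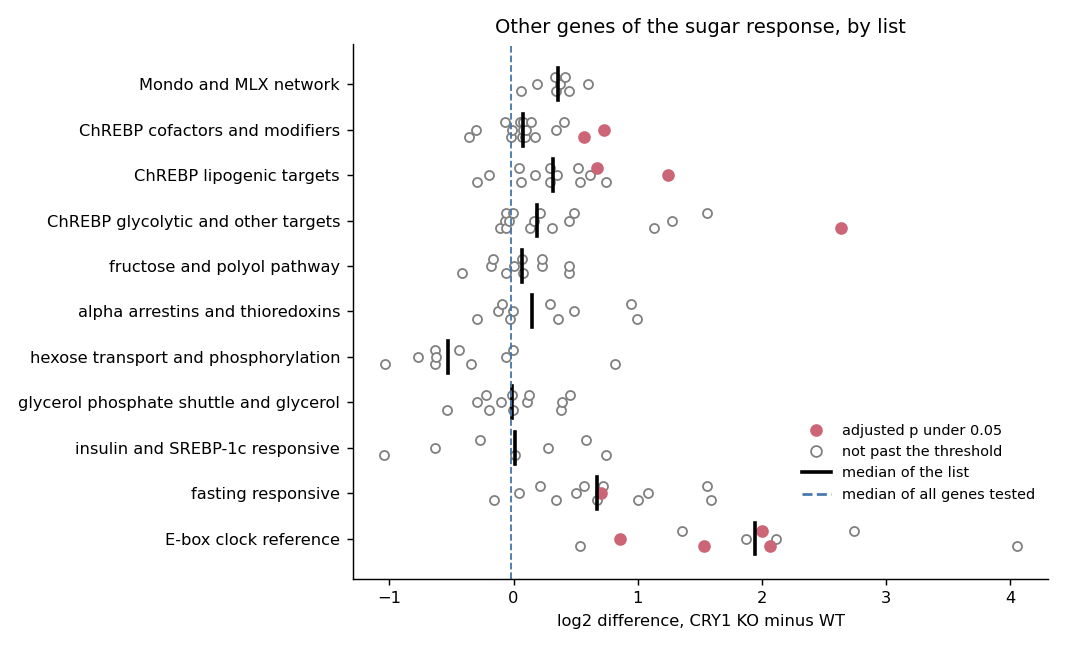
Log2 difference (horizontal axis, libraries labelled CRY1 KO minus WT) of each tested gene in 11 lists (rows), without the 9 genes; red circles passed edgeR at an adjusted p of 0.05, open circles did not, black bars are list medians and the dashed line is the median of all tested genes (-0.02). Filled circles stand in 5 of the lists, the hexose list lies mostly below 0 and the clock list lies farthest above it.

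A list of 10 clock genes known to be driven through E-boxes served as a reference. All 10 were higher without overlap (median 1.94), as were 14.6% of all tested genes. The edgeR test called 4 of the 10 higher, where it called 1.06% of all tested genes higher. The 4 were Per3 (2.07), Per2 (2.003), Tef (1.53) and Nr1d2 (0.86). On the log2 scale the 10 ran from 0.54 (Nr1d1) to 4.05 (Ciart), and neither of these end genes passed the edgeR test. Set beside this range, Txnip (2.25) lay within it and Arrdc4 (0.84) and Pklr (0.74) towards its lower end. Of these, only the promoter window of Arrdc4 held the E-box CACGTG. Mlxipl (0.13), Khk (-0.01) and Mlx (-0.40), whose windows held it as Arrdc4 did, lay below all 10. Sites in the promoter windows of the 10 clock genes were not read. The part of E-boxes in any of these differences was not tested.

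For 4 of the 9 genes the tested genes with the most similar levels over the 6 libraries were sought among 8805 genes of at least 5 CPM. Likeness was the root mean square difference of the log2 deviations from each gene's own mean, and a smaller value is closer. Nearest to Txnip were the clock repressor gene Bhlhe40 (0.28), Klf10 (0.36) and Per2 (0.39). All had CRY1 KO 1 as the lowest library labelled CRY1 KO, as Txnip did, and Bhlhe40 and Klf10 also had WT 2 lowest and CRY1 KO 2 highest. Nearest to Arrdc4 were Lrrc58 (0.06), the clock gene Nr1d2 (0.07) and Pex11a (0.08), which encodes a protein of peroxisome division. Nearest to Pklr were Polr1a (0.08), which encodes the largest subunit of RNA polymerase I, Tmed5 (0.09) and Mapre2 (0.10). Among those nearest to Mlxipl were Atxn2 (0.07) and Scnn1a (0.07), both with the peak in WT 3. With 6 libraries in 2 groups, many genes that differ between the groups come out alike by this measure. The similar genes were chosen by these same values, so a shared order of libraries or a shared peak follows from the choice.

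**Figure D5:**
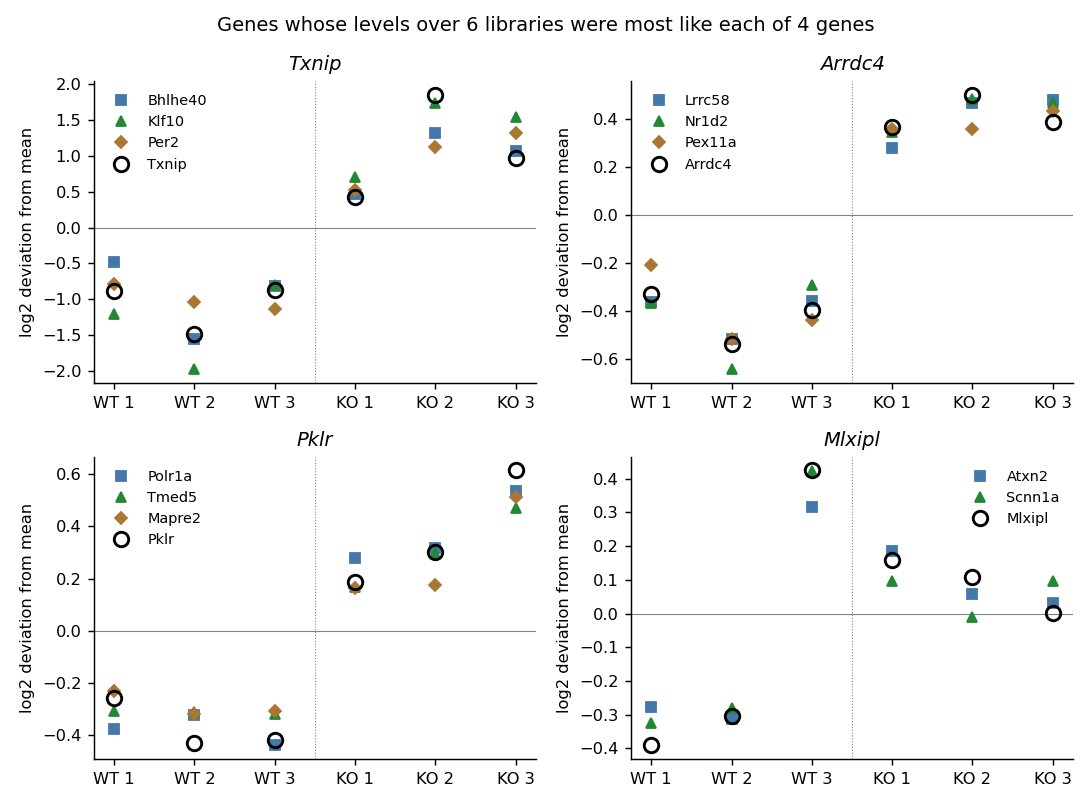
Log2 deviation of CPM from the gene's own mean (vertical axis) in the 6 libraries (horizontal axis, WT 1 to 3 and CRY1 KO 1 to 3) for Txnip, Arrdc4, Pklr and Mlxipl (black rings) and the 3 most similar genes of each, or 2 of them for Mlxipl. Txnip and its neighbours are spread widely within the libraries labelled CRY1 KO, Arrdc4 and Pklr with theirs separate the groups, and Mlxipl with its neighbours peaks in WT 3.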

How the data were processed

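Polyadenylated RNA was sequenced with a stranded kit, per the labels' protocols. The deposited table gives 1 whole number per gene and library, taken as estimated counts made by the authors; the unit was inferred from the values and from StringTie being named. The submitters' processing notes name StringTie 2.1.7, HISAT2 2.2.1, limma 3.42.2, Trim Galore 0.6.7 and build GRCm39. Not given in the sources used here are their order, their settings and the annotation. All 6 columns were matched by title. More genes had the value 3 than 1, 2 or 4 in every library, so low values are not fragment counts.

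Genes were filtered with filterByExpr (minimum count 10, minimum total 15) in edgeR 4.0.16, which removed 1276. TMM scaling and the quasi-likelihood test with Benjamini-Hochberg adjustment over all 13816 genes followed, with a threshold of 0.05. SE is the log2 difference divided by the square root of the test statistic. DESeq2 1.42.0 and limma 3.58.1 (log2 CPM, prior count 2) were alternatives, beside other scalings, no filter, a replicate block and leaving out each library. The procedure was tested on simulated data. The 9 genes, the lists and the tests were chosen with earlier results of these data known. Named genes are the 9 genes, Cry1, in each list the called genes and those of the 4 smallest p that are described, and the 3 genes most like each of 4 chosen genes; Thrsp, Acly, Fasn, Ogt, Txn1, Slc2a4, Hk1 and Jchain were added after their values were seen, and some genes the rule takes are not reported here. The mismatch limit of the promoter search was chosen after the sequences were seen. Promoter coordinates are of GRCm38.p6, not of the authors' build.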

Additional observations from a re-analysis of the deposited data

How the results depend on the processing

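Counts of called genes moved with the settings. Of all genes edgeR called 235, DESeq2 1252, edgeR on library totals alone 113 and edgeR with the replicate block 94, and with 1 library left out the count ran from 17 to 844. Of the 9 genes 2 were called by edgeR, 6 by DESeq2, 0 on library totals alone (7 at an unadjusted p under 0.05, as were 16.3% of all genes) and 0 with the replicate block (6 at an unadjusted p under 0.05, as were 19.1% of all genes; adjusted p = 0.0791 for Pklr and for Arrdc4 by edgeR), and 0 to 5 with 1 library left out. In the 11 lists 10 genes were called, 33 by DESeq2, 6 on library totals alone, and 2 to 27 with 1 library left out. On library totals alone Pklr had an edgeR adjusted p of 0.0596 and Arrdc4 of 0.0523. Same-numbered libraries did not deviate together (correlations of -0.066, -0.014 and 0.070 for numbers 1, 2 and 3), and libraries of unlike number gave -0.092 to 0.097. The labels do not say whether the numbers pair libraries, and so few correlations cannot settle it. Of 117 values of the 9 genes under the alternatives, 92 kept their direction and side of the threshold, 12 lost a call, 9 gained one and 4 changed sign. With 1 library left out the log2 difference ran from -0.016 to 0.439 for Mlxipl, from -0.097 to 0.051 for Khk, from -0.190 to 0.088 for Cry1 and from -0.053 to 0.366 for Scnn1a, changing sign in each. The cause was not tested. Leaving out a library also leaves fewer samples. Each of the 9 genes had at least 366 counts per library, so low values do not limit them. The carbohydrate response element was found in 1 of the 8 genes with a promoter sequence at 0 mismatches and in 2 at up to 1 or up to 2.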
